A study of Rattus norvegicus with 10 samples.

Results

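Angiotensin and endothelin signalling was described through 9 genes of the fetal rat heart, namely Agt, Ace, Agtr1a, Agtr2, Edn1, Ece1, Ednra, Ednrb and Nr3c2. They were taken by symbol from the table of expression values, and all 9 are listed there among 18025 genes. In hearts of hyperglycemic pregnancies Ace was lower by 57.0%, the transcript of endothelin-1 and that of its processing enzyme were higher, and the endothelin receptors changed in opposite directions, with Ednrb higher and Ednra slightly lower. Ace and Ednrb were called in all 23 alternative settings. The other calls were less firm, with Edn1 and Ednra called in 18 of 23 settings and Ece1 in 14. Agt, Agtr1a, Agtr2 and Nr3c2 did not pass the test. Of the 9 genes, 3 rose and 2 fell, where 28.4% of all genes tested were called higher in HG and 11.8% lower.

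Fetal hearts of embryonic day 19.5 were profiled by RNA sequencing, with 5 libraries of the control (CON) group and 5 of the hyperglycemia (HG) group. CON fetuses were carried by Sprague-Dawley dams that received citric acid buffer, and HG fetuses by dams that received streptozotocin (STZ) in that buffer by intraperitoneal injection. STZ destroys the insulin-producing beta cells of the pancreas, so the HG dams model a lack of maternal insulin. In both groups the dams were 3 months old, the sires were normoglycemic, the tissue was heart and the genotype was wt. The labels give neither the litter nor the sex of a fetus. P-values therefore measure the spread between these libraries, which may be partly shared within a litter. Y chromosome genes summed to 38.0 to 44.4 FPKM in CON1, CON4, HG1 and HG3 and to 0.376 to 0.961 FPKM in the other libraries. The study's methods speak of pooled RNA for library construction, but these sums differ widely between libraries of the same group. Whether several hearts were pooled within a library was not tested.

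Values are FPKM, the fragments of a gene per unit of its length and of library size, so that levels of genes of different length can be compared. Reads were recovered from the steps between values, with between 16672876 and 19109844 reads on genes per library. Cardiomyocyte markers summed to between 13606 and 18703 FPKM and lung epithelial markers to at most 0.179 FPKM. The labels and the study's methods name heart, whereas a figure legend of the study speaks of isolated fetal cardiomyocytes. The labels were followed. In whole tissue, fewer cells of a type and less RNA per cell cannot be told apart. A gene was called changed at a Benjamini-Hochberg adjusted p under 0.05 in limma on log2(FPKM + 0.1), and a differentially expressed gene (DEG) also had an absolute log2 fold change above 1. Of the 14542 genes tested, 40.1% were called and 1.94% were DEGs, and in 27.4% the CON and HG libraries did not overlap. Rescaling the libraries by median-of-ratios factors moved the share of higher genes among those called from 70.7% to 47.1%, and quantile normalization moved it to 53.0%.

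Angiotensinogen (Agt) is the precursor of angiotensin I, which angiotensin-converting enzyme (Ace) trims to angiotensin II, the ligand of the type 1 and type 2 receptors. The type 1 receptor drives vasoconstriction, growth and aldosterone release, the type 2 receptor is abundant in fetal mesenchyme and often opposes it, and aldosterone acts through the mineralocorticoid receptor Nr3c2. Endothelin-1 (Edn1) is released from endothelium as a precursor that endothelin-converting enzyme 1 (Ece1) cuts, and it acts on receptors A (Ednra) and B (Ednrb). This branch is needed for neural crest cells that shape the outflow tract and great vessels.

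Promoter sequences are shown for Ace, which had the largest change of the 9 genes, for the ligand Edn1 and for both endothelin receptors, which moved apart. They are the 250 bases before the annotated start in RefSeq (build GRCr8, whereas the processing notes name mRatBN7.2), and entries were found for 7 of the 9 genes, with none for Agt and Nr3c2. Each is written 5′ to 3′ along the gene, at chr10:91409879-91410128 on the plus strand for Ace, chr17:22666688-22666937 on the minus strand for Edn1, chr19:47137674-47137923 on the plus strand for Ednra and chr15:87086766-87087015 on the minus strand for Ednrb. Capitals mark matches, on either strand, to any of 5 motifs.
Ace: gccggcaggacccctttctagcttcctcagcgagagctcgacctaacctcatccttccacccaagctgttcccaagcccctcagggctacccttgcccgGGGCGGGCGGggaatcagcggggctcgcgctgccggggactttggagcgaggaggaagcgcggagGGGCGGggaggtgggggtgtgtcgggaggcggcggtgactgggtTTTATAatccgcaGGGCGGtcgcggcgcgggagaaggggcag
Edn1: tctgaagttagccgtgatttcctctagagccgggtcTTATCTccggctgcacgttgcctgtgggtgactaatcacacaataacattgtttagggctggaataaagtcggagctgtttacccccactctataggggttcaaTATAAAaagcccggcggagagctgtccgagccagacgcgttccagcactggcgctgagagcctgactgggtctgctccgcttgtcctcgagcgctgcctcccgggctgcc
Ednra: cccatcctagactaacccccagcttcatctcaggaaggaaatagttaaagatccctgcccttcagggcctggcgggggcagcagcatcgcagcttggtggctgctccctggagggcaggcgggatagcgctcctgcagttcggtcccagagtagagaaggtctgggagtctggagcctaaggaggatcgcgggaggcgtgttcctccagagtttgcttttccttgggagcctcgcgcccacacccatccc
Ednrb: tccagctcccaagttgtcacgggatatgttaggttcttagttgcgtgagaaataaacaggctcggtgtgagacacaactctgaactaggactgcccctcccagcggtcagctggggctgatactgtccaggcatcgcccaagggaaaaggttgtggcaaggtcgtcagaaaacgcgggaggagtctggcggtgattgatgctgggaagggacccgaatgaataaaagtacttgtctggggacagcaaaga

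The motifs searched, on both strands, were the TATA box with the letters TATAAA, the GC box with the letters GGGCGG, the CCAAT box, the AP-1 site with the letters TGANTCA and the GATA site with the letters AGATAA. Among 33469 promoter stretches of this length, the TATA box letters were in 12.9%, those of the GC box in 30.5%, of the CCAAT box in 34.0%, of the AP-1 site in 6.34% and of the GATA site in 10.3%. The Ace stretch held the TATA box letters 42 bases before the start, read on the opposite strand, and 4 GC boxes, a pair of which overlap at 151 and 147 bases before the start. The Edn1 stretch held the TATA box letters 110 bases before the annotated start and those of the GATA site on the opposite strand at 214 bases. The Ednra and Ednrb stretches held none of the 5 motifs, and their GC content was 61.2% and 53.2%. These are matches of letters, and no binding was measured.

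**Figure D1:**
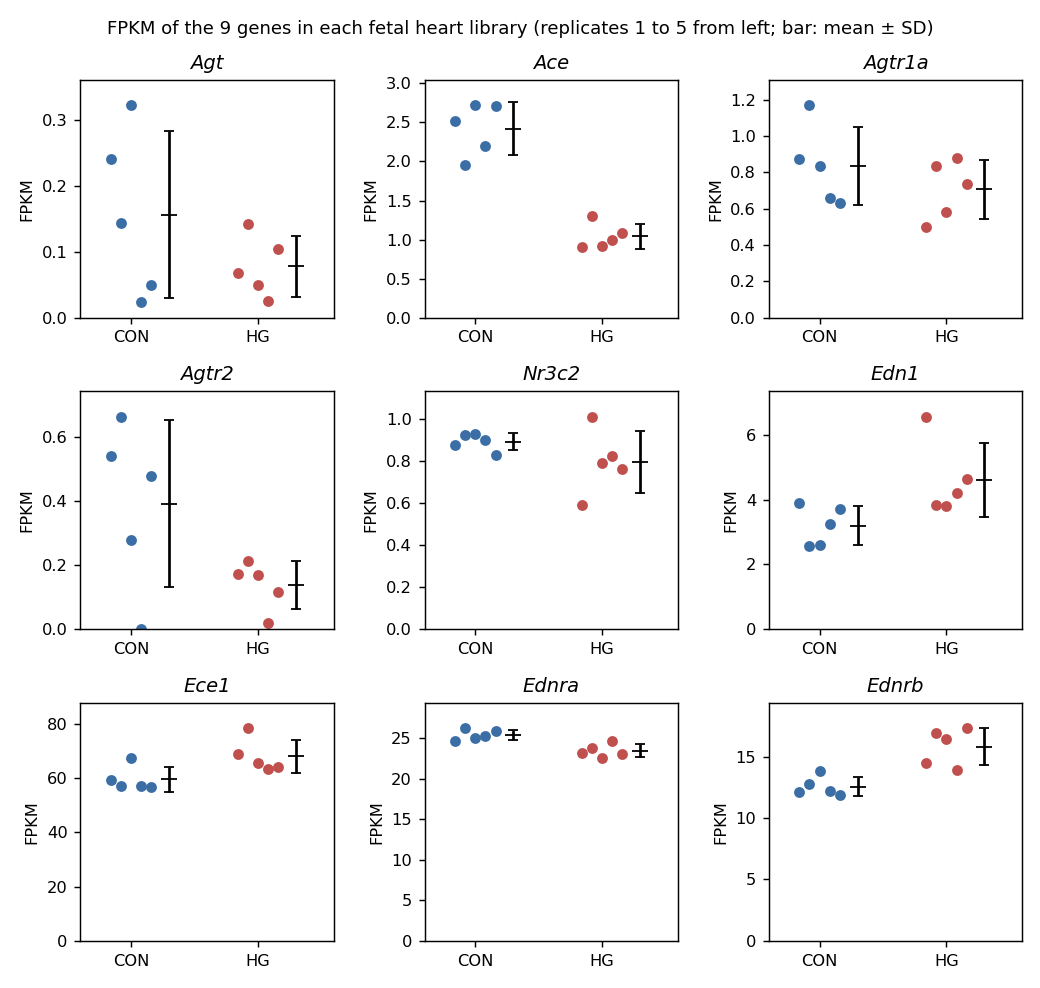
FPKM of each of the 9 genes (vertical axis, from 0) in CON and HG libraries (points, replicates 1 to 5 from left to right), with the mean and SD of each group as a bar. CON and HG points do not overlap for Ace and Ednrb, and the CON4 and HG4 points of Agtr2 lie at or near 0.

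By level, the order of the 9 genes was the same in both groups, namely Ece1, Ednra, Ednrb, Edn1, Ace, Nr3c2, Agtr1a, Agtr2 and Agt. Neighbours in this order whose ranges overlapped were Edn1 and Ace in CON, Ace and Nr3c2 in HG, Nr3c2 and Agtr1a in both groups, Agtr1a and Agtr2 in CON, and Agtr2 and Agt in both groups. Endothelin genes thus made up the upper part of the order and angiotensin genes the lower part. Ece1 had a mean of 59.6 FPKM in CON, whereas Agt had 0.157 FPKM.

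Agt, the precursor of all angiotensins and a product mainly of the liver, was close to the limit of detection. Its FPKM was 0.242, 0.144, 0.323, 0.0241 and 0.0495 in CON1 to CON5. HG1 to HG5 had 0.0688, 0.143, 0.0505, 0.0248 and 0.105 FPKM. These values rest on 32 reads over the 5 CON libraries and 16 over the 5 HG libraries, the groups overlapped, and CON3 was highest. The log2 fold change was -0.41 (HG minus CON; 95% confidence interval -1.17 to 0.35; limma, adjusted p = 0.380), an interval that holds both a clear decrease and no change. CON3 was also the library with the most liver transcripts, whose 10 markers summed to 98.7 FPKM there and to between 7.22 and 15.5 FPKM in the other CON libraries and 6.57 to 7.47 FPKM in HG. Albumin (Alb) had 1231 reads in CON3 and 2 to 107 reads in the other 9 libraries. The part of liver transcripts in the Agt values was not tested. Without CON3, Agt had too low a mean to be tested.

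Ace, which makes angiotensin II and also inactivates bradykinin, had the largest difference of the 9 genes. Its FPKM was 2.52, 1.96, 2.72, 2.20 and 2.71 in CON1 to CON5. The HG libraries, again 1 to 5, had 0.909, 1.30, 0.918, 0.998 and 1.09 FPKM. Every HG library lay below every CON library, with 66 to 99 reads in HG against 148 to 199 reads in CON. Ace fell from a CON mean of 2.42 ± 0.335 FPKM to an HG mean of 1.04 ± 0.161 FPKM (SD, n = 5 each), and the log2 fold change was -1.14 (SE 0.124; 95% confidence interval -1.41 to -0.87; limma, adjusted p = 3.09e-05). Ace was the only DEG of the 9 genes, and it was called with the same sign in all 23 alternative settings, although at a pseudocount of 1 its log2 fold change of -0.74 was below the DEG size.

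The 3 genes whose pattern over the 10 libraries was most like that of Ace were Rab3b, Ank1 and Sptb. Rab3b is a small GTPase of vesicle traffic, Ank1 is an ankyrin, and Sptb is annotated as an erythrocytic beta spectrin. Their root mean square differences from Ace, after each gene was centred on its CON mean, were 0.118, 0.135 and 0.144 on the log2 scale. Of 12 red cell markers, 7 were lower and 3 higher in HG (83.3% called, against 40.1% of all genes). The 3 higher were the globin genes Hbz, Hbe1 and Hbe2. Hba-a1, the most abundant of the list, had a mean of 7587 FPKM in CON and 5199 FPKM in HG. The 12 markers summed to 10573 to 19987 FPKM in CON and 8344 to 11689 FPKM in HG. From CON1 to CON5 the sum was 19987, 19713, 10573, 14048 and 12295 FPKM. CON3, the CON library highest in Ace, was thus the lowest of CON in this sum. The part of red cell or of cardiomyocyte transcripts in the Ace values was not tested.

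Agtr1a, the main type 1 angiotensin receptor gene of the rat, was not called. Its FPKM was 0.875, 1.17, 0.837, 0.661 and 0.633 in CON1 to CON5. In HG1 to HG5 it was 0.501, 0.833, 0.583, 0.882 and 0.738. The groups overlapped widely, and HG1 was the lowest library. The log2 fold change was -0.21 (95% confidence interval -0.61 to 0.19; limma, adjusted p = 0.400) on 35 to 78 reads per library. The second type 1 receptor gene of rodents, Agtr1b, had 1 read in CON2 and 0 reads in the other libraries. Reads of these near-identical receptor genes can be split by the counting, so their values are uncertain in that respect.

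Agtr2, the type 2 receptor gene on the X chromosome, had its highest values in CON and nearly none in replicate 4 of either group. Its FPKM was 0.540, 0.662, 0.277, 0 and 0.479 in CON1 to CON5. HG1 to HG5 had 0.171, 0.213, 0.169, 0.0185 and 0.117 FPKM. The 4 other CON libraries, at 15 to 37 reads, all lay above every HG library, at 1 to 12 reads, but CON4 had 0 reads, which allows up to 0.0538 FPKM (the value of 3 reads). Such limits cover counting error only. Over all libraries the log2 fold change was -0.84 (SE 0.494; 95% confidence interval -1.91 to 0.24; limma, adjusted p = 0.200), so Agtr2 was not called. Without CON4 it was -1.34 (adjusted p = 0.00581), and without replicate 4 of both groups, an alternative chosen after the values were seen, it was -1.11 (adjusted p = 0.00611). Leaving out CON4 alone thus changed the call of Agtr2.

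Another 4 genes were low in the same libraries. They were found after the Agtr2 values were seen, by a rule that asked for fewer reads in replicate 4 of each group than the lowest of the other replicates divided by 4, with at least 10 reads in the lowest of the other CON libraries. Fbln5, a protein of elastic fibres, had 189 reads in CON4 and 1304 to 1842 reads in the other CON libraries, and 183 reads in HG4 and 818 to 1322 reads in the other HG libraries. Acan, the cartilage proteoglycan aggrecan, Cnmd, the avascular tissue protein chondromodulin, and the choline transporter gene Slc5a7 followed the same pattern. CON4 and HG4 differed in their Y chromosome genes, which summed to 38.0 FPKM and 0.788 FPKM. What the low genes share was not tested.

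**Figure D2:**
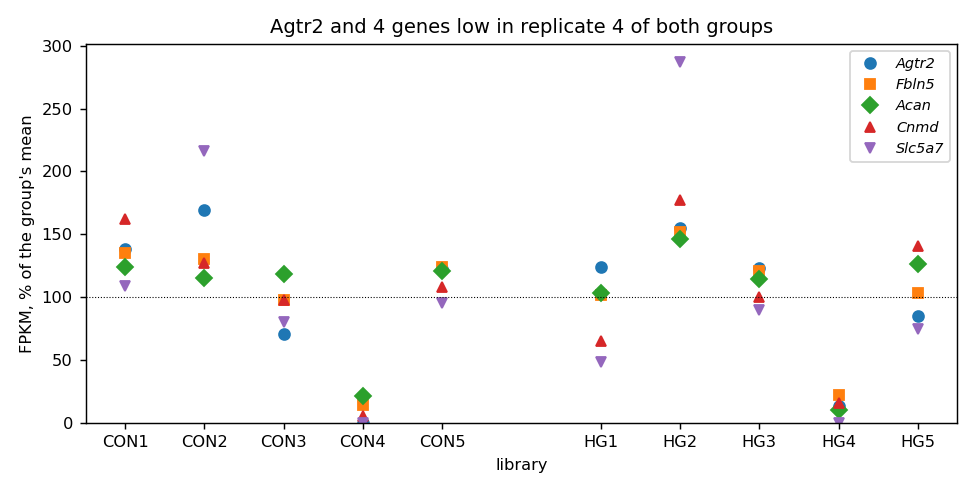
FPKM of Agtr2, Fbln5, Acan, Cnmd and Slc5a7 in each library, as a percent of the mean of that gene in the library's own group (dotted line, 100%). All 5 genes stand at 0 to 21.9% of the group mean in CON4 and HG4 and at 48.7% or more in the other 8 libraries.

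Nr3c2, the mineralocorticoid receptor, was not called. Its FPKM was 0.875, 0.924, 0.927, 0.898 and 0.830 in CON1 to CON5. The HG libraries, again 1 to 5, had 0.593, 1.01, 0.789, 0.822 and 0.760 FPKM. The HG libraries enclosed the whole CON range, with HG1 lowest and HG2 highest. The log2 fold change was -0.16 (95% confidence interval -0.44 to 0.12; limma, adjusted p = 0.342).

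Nr3c1, the glucocorticoid receptor that binds many of the same DNA elements, was more abundant, at 12.4 ± 0.337 FPKM over the CON libraries and 10.8 ± 0.599 FPKM over the HG libraries (SD, n = 5 each), and it fell by 0.19 on the log2 scale (limma, adjusted p = 0.00731). The log2 ratio of Nr3c1 to Nr3c2 was 3.66 ± 0.0477 in CON and 3.63 ± 0.207 in HG and did not separate the groups (difference -0.03; two-sided exact permutation test, p = 0.786, adjusted over 3 ratios 0.786). Hsd11b2, which protects the mineralocorticoid receptor from glucocorticoids, had 3 to 12 reads per library and a log2 fold change of -0.10 (limma, adjusted p = 0.763). Hsd11b1, which regenerates active glucocorticoid, differed by 0.01 on the log2 scale (adjusted p = 0.978), with a sign that flipped under median-of-ratios factors and quantile normalization.

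Of 9 listed genes of the mineralocorticoid pathway, 8 were tested, 4 fell and 0 rose (50.0% called, against 40.1% of all genes, of which 11.8% were lower). Besides Nr3c1 these were Tsc22d3 and Sgk1, which corticosteroid receptors induce, and Cyp11a1, which starts steroid synthesis. Tsc22d3 fell by 0.32 on the log2 scale (limma, adjusted p = 0.00133), and its ranges of 18.9 to 22.9 FPKM in CON and 15.5 to 18.4 FPKM in HG did not overlap. Sgk1 fell by 0.35 (adjusted p = 0.00136) and Cyp11a1 by 0.61 (adjusted p = 0.00187), also without overlap. The aldosterone synthase gene Cyp11b2 was below the filter.

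Edn1, the endothelin-1 ligand gene, was higher in HG. Its FPKM was 3.89, 2.56, 2.61, 3.24 and 3.70 in CON1 to CON5. In HG1 to HG5 it was 6.55, 3.83, 3.81, 4.20 and 4.62. HG1 was far above the others, and the groups overlapped only through CON1, which exceeded HG2 and HG3. The mean was 3.20 ± 0.609 FPKM over the CON libraries and 4.60 ± 1.14 FPKM over the HG libraries (SD, n = 5 each), a log2 fold change of 0.50 (SE 0.159; 95% confidence interval 0.16 to 0.85; limma, adjusted p = 0.0244). Its call was lost in 5 of 23 alternatives, namely median-of-ratios factors (adjusted p = 0.0661), quantile normalization (0.0831), without CON2 (0.0571), without CON3 (0.0602) and without replicate 4 of both groups (0.0516), all with the same sign. The other ligand genes were near 0, with 0 to 1 reads per library for Edn2 and 0 to 5 reads for Edn3.

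The genes closest to Edn1 in pattern were Meiosin, Ca9, a carbonic anhydrase known as a hypoxia target, and Lss, an enzyme of sterol synthesis, with root mean square differences of 0.170, 0.173 and 0.188 on the log2 scale. Of these, Lss was called (limma, adjusted p = 0.000583), and Meiosin (0.0555) and Ca9 (0.0628) were not.

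Ece1, the enzyme that cuts big endothelin-1 to the active peptide, was the most abundant of the 9 genes. Its FPKM was 59.3, 57.3, 67.5, 57.0 and 56.9 in CON1 to CON5. HG1 to HG5 had 68.9, 78.4, 65.5, 63.3 and 64.2 FPKM. CON3 stood above its group and within the HG range, and HG2 was the highest library. The mean was 59.6 ± 4.53 FPKM over the CON libraries and 68.1 ± 6.13 FPKM over the HG libraries (SD, n = 5 each), or 14.2% higher, with a log2 fold change of 0.19 (SE 0.0643; 95% confidence interval 0.05 to 0.33; limma, adjusted p = 0.0328). Ece1 was called in 14 of 23 alternatives, and median-of-ratios factors gave a log2 fold change of 0.10 (adjusted p = 0.283). It was not called when any of CON1, CON2, CON4, CON5, HG1 or HG2 was left out, with adjusted p between 0.0590 and 0.0709, and without CON3 its adjusted p was 0.00936.

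The paralogue Ece2 differed by 0.22 on the log2 scale (limma, adjusted p = 0.148). Furin, a proprotein convertase that makes big endothelin-1, rose from a CON mean of 28.6 ± 1.10 FPKM to an HG mean of 35.2 ± 2.80 FPKM (SD, n = 5 each), a log2 fold change of 0.30 (limma, adjusted p = 0.000891) without overlap of the groups. Kel, a blood group protein of red cells that cleaves big endothelin-3, fell by 0.73 on the log2 scale (adjusted p = 0.00195), also without overlap. These were the only calls among 4 tested of 7 listed genes of the endothelin branch other than the 9 (50.0% called, against 40.1% of all genes). The red cell sums given beside Ace apply to Kel too, and their part was not tested.

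Ednra, the receptor of cardiomyocytes, smooth muscle and neural crest mesenchyme, was slightly lower in HG. Its FPKM was 24.6, 26.2, 25.0, 25.3 and 25.9 in CON1 to CON5. The HG libraries, again 1 to 5, had 23.2, 23.8, 22.5, 24.6 and 23.0 FPKM. The groups overlapped only at the lowest CON library, CON1, and the highest HG library, HG4. The mean fell by 7.73%, from 25.4 ± 0.634 to 23.4 ± 0.836 FPKM (SD, n = 5 each), and the log2 fold change was -0.12 (SE 0.0372; 95% confidence interval -0.20 to -0.04; limma, adjusted p = 0.0260). Each library held 1966 to 2450 reads of Ednra. Of the libraries left out in turn, its call was lost without CON2, CON5, HG1 or HG3 (adjusted p between 0.0508 and 0.0678). The log2 fold change of Ednra was -0.21 with median-of-ratios factors (adjusted p = 0.00227) and -0.18 with quantile normalization (adjusted p = 0.00379).

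Ednrb, the receptor of endothelium and of neural crest derivatives, was higher in HG. Its FPKM was 12.1, 12.8, 13.8, 12.2 and 11.9 in CON1 to CON5. In HG1 to HG5 it was 14.5, 16.9, 16.4, 13.9 and 17.3. Every HG library lay above every CON library, with CON3 and HG4 next to each other. The mean rose by 25.7%, from 12.6 ± 0.753 to 15.8 ± 1.50 FPKM (SD, n = 5 each), a log2 fold change of 0.32 (SE 0.0674; 95% confidence interval 0.18 to 0.47; limma, adjusted p = 0.00244). Like Ace, Ednrb was called with the same sign in all 23 alternatives. Ace and Ednrb were the only ones of the 9 genes without overlap between the groups, against 27.4% of all genes tested.

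The balance of the endothelin receptors was compared within each library, where it does not depend on the scaling. The log2 ratio of Ednrb to Ednra was -1.02, -1.03, -0.85, -1.04 and -1.11 in CON1 to CON5. In HG1 to HG5 it was -0.67, -0.49, -0.46, -0.82 and -0.41. All HG libraries lay above all CON libraries, with CON3 and HG4 closest. The mean rose from -1.01 ± 0.0935 over CON to -0.57 ± 0.173 over HG libraries (SD, n = 5 each), a difference of 0.44 with p = 0.00794 in a two-sided exact permutation test, below which 5 libraries against 5 cannot go (adjusted over 3 ratios 0.0238). In linear terms Ednrb stood at 0.495 of Ednra in CON and 0.675 in HG. The log2 ratio of Agtr2 to Agtr1a was -1.18 ± 1.04 over CON and -1.81 ± 0.753 over HG libraries (SD, n = 5 each; difference -0.63; exact permutation test, p = 0.310, adjusted 0.464), and without CON4 the difference was -1.06 (adjusted p = 0.0476).

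**Figure D3:**
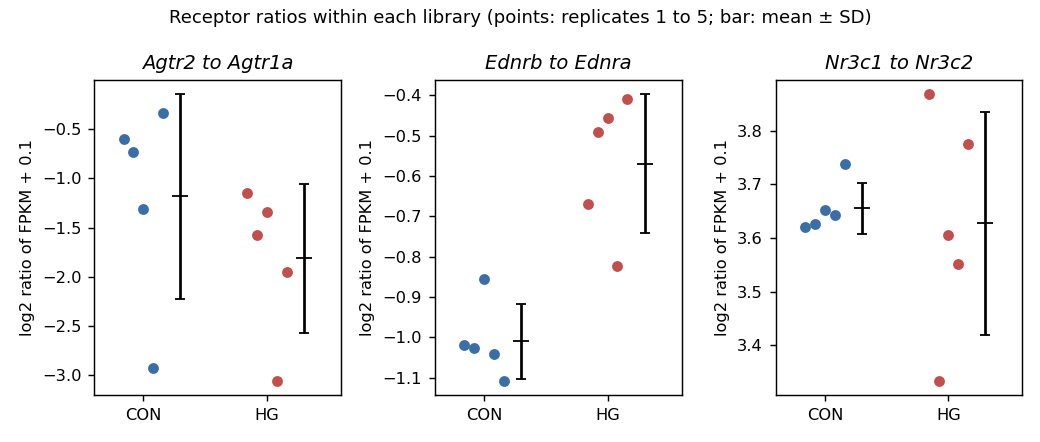
Log2 ratio of FPKM + 0.1 (vertical axes, each with its own range) between receptor genes within each CON and HG library, with mean and SD as bars. The Ednrb to Ednra ratio separates the groups at about -0.85 to -0.82, and replicate 4 of each group is the low point of Agtr2 to Agtr1a.

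Markers of several cell types also differed between the groups, where 28.4% of all genes tested were called higher in HG and 11.8% lower. All 5 endocardial markers were tested and 4 rose, with a sum of 62.2 to 80.2 FPKM in CON and 85.1 to 114 FPKM in HG, without overlap. Of 9 endothelial markers 3 rose (33.3%, near the share of all genes), with overlapping sums of 304 to 331 FPKM in CON and 313 to 345 FPKM in HG. Of 10 cardiomyocyte markers 9 fell, with sums of 17815 to 18703 FPKM in CON and 13606 to 15658 FPKM in HG. Smooth muscle and pericyte markers summed to 883 to 983 FPKM in CON and 1101 to 1352 FPKM in HG (3 rose and 2 fell of 10). Among them Acta2, Tagln and Cnn1 rose, whereas Cspg4 and Abcc9 fell. Acta2 alone had a mean of 538 FPKM in CON and 673 FPKM in HG, so this sum mostly follows Acta2. Fibroblast markers summed to 1762 to 2053 FPKM in CON and 1586 to 1821 FPKM in HG (2 rose and 5 fell of 10). Markers of neural crest derived glia summed to 4.32 to 5.06 FPKM in CON and 3.66 to 6.08 FPKM in HG. The part of these shifts in the changes of Ace, Edn1, Ece1, Ednra and Ednrb was not tested.

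The genes most like Ednrb in pattern were Fzd8, a Wnt receptor, Cdh11, a mesenchymal cadherin, and Pbx2, a homeodomain protein, with root mean square differences of 0.0511, 0.0551 and 0.0646 on the log2 scale. For Ednra they were Mrpl27, a mitochondrial ribosomal protein, Unc45b, a myosin chaperone of striated muscle, and the nucleotidase Nt5c2, with 0.0311, 0.0334 and 0.0353. For Ece1 they were Fam216a, the vesicle protein Stx6 and the exchange factor Fgd1, with 0.0551, 0.0558 and 0.0561.

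**Figure D4:**
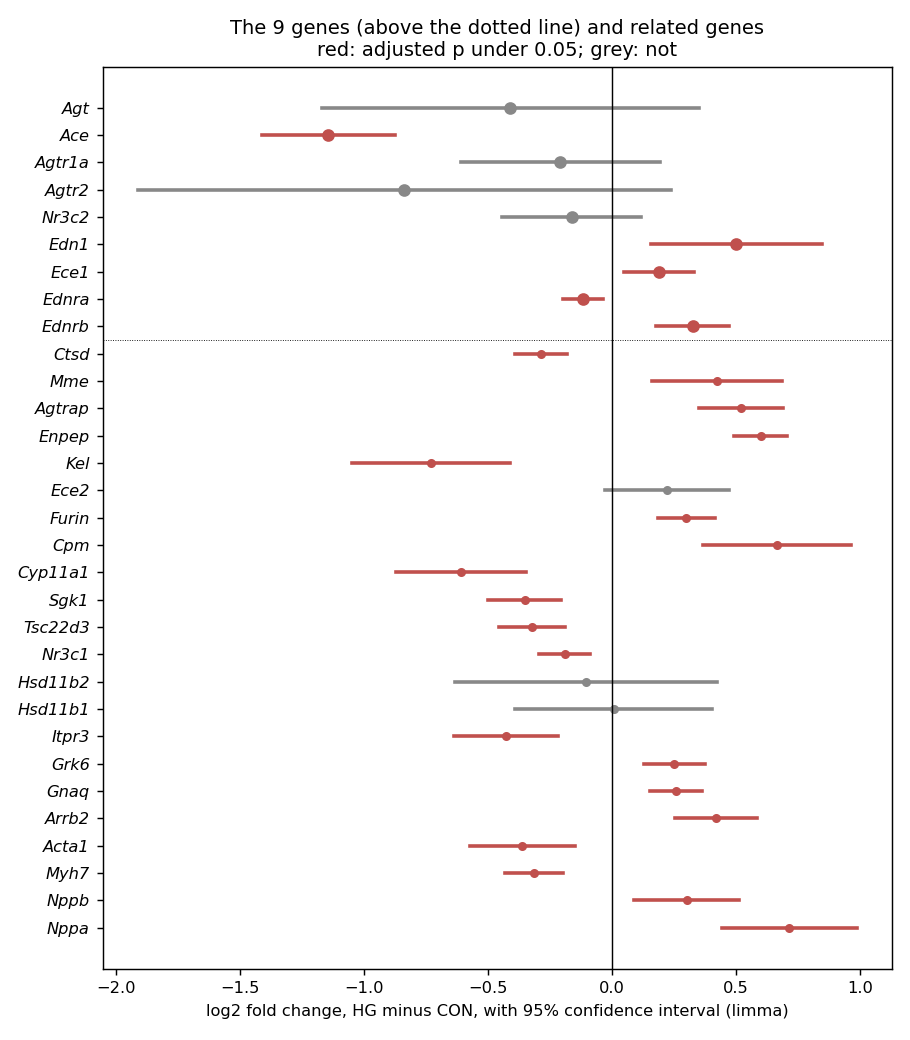
Log2 fold change, HG minus CON, with its 95% confidence interval from limma, for the 9 genes (above the dotted line) and the related genes named in the text, in red where the adjusted p was under 0.05. Agt and Agtr2 have the widest intervals of the 9 genes and Ednra the narrowest.

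Among the 9 genes, 5 of 9 (55.6%) were called, against 40.1% of all genes tested, and the median log2 fold change was -0.16, against 0.09 for all genes. Of the other genes of angiotensin processing and response, 18 were listed and 14 tested, of which 3 rose and 2 fell (35.7% called, against 40.1% of all genes). Enpep, the aminopeptidase A that turns angiotensin II into angiotensin III, rose from 21.9 ± 1.59 to 33.1 ± 0.880 FPKM (SD, n = 5 each), a log2 fold change of 0.60 (limma, adjusted p = 3.93e-06). Agtrap, which binds the type 1 receptor and promotes its internalization, rose by 0.52 on the log2 scale (adjusted p = 0.000273), and Mme, the neprilysin that degrades angiotensin and natriuretic peptides, by 0.42 (adjusted p = 0.0147). Ctsd, a lysosomal protease able to cut angiotensinogen, fell by 0.29 (adjusted p = 0.000683). The fifth call was Mtus1, a gene of a type 2 receptor interacting protein, which is outside the naming rule and fell by 0.21 (adjusted p = 0.0248). None of these 5, which were picked because they were called, overlapped between the groups. Of all genes tested, called or not, 27.4% did not overlap.

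Of 6 listed bradykinin genes, 4 were tested and 1 rose (25.0% called, against 40.1% of all genes). This was Cpm, a membrane carboxypeptidase that trims kinins, with a log2 fold change of 0.67 (limma, adjusted p = 0.00231). The kininogen genes Kng1 and Kng2, liver products, had 44 and 63 reads in CON3 and at most 2 and 6 reads elsewhere.

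Downstream of the receptors, all 33 listed signalling genes were tested, of which 11 rose and 4 fell (45.5% called, against 40.1% of all genes). Arrb2, a beta-arrestin that ends receptor signalling, rose by 0.42 on the log2 scale (limma, adjusted p = 0.00105). Gnaq, the G protein subunit that both type 1 angiotensin and endothelin receptors use, rose by 0.26 (adjusted p = 0.00116), and the receptor kinase gene Grk6 by 0.25 (adjusted p = 0.00390). Itpr3, a calcium release channel, fell by 0.43 (adjusted p = 0.00396). With median-of-ratios factors 9 of the 33 genes were called, and the 4 named genes were among them with the same sign, at log2 fold changes of 0.17 for Gnaq and 0.16 for Grk6.

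Of 13 listed genes known to rise in cultured heart cells given angiotensin II or endothelin-1, 3 rose and 2 fell, and 8 did not pass (38.5% called, against 40.1% of all genes). Nppa, the atrial natriuretic peptide gene, rose from a CON mean of 1733 ± 262 FPKM to an HG mean of 2855 ± 509 FPKM (SD, n = 5 each), a log2 fold change of 0.71 (limma, adjusted p = 0.000797) without overlap. Nppb, its ventricular counterpart, rose by 0.30 on the log2 scale (adjusted p = 0.0266), a difference that was called in 14 of 23 alternatives, and the third rise was Tgfb1. The sarcomere genes Myh7 and Acta1 fell by 0.31 (adjusted p = 0.000751) and 0.36 (adjusted p = 0.0110), as did 9 of the 10 cardiomyocyte markers. Quantile normalization ended the call of Acta1 (adjusted p = 0.120) and gave a log2 fold change of -0.19 for Myh7. The immediate early genes Fos, Jun and Egr1 were not called, with adjusted p of 0.0791, 0.377 and 0.453.

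By the annotation attached to the table, 6 of the 9 genes carry the GO term vasoconstriction, which 21 listed genes carry. Of the 13 tested genes with that term, 2 rose and 4 fell. These 13 include 6 of the 9 genes, so the count partly repeats their calls. Over all genes tested, 28.4% were called higher in HG and 11.8% lower. The GO term heart development is attached to 4 of the 9 genes and KEGG vascular smooth muscle contraction to 4.

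**Figure D5:**
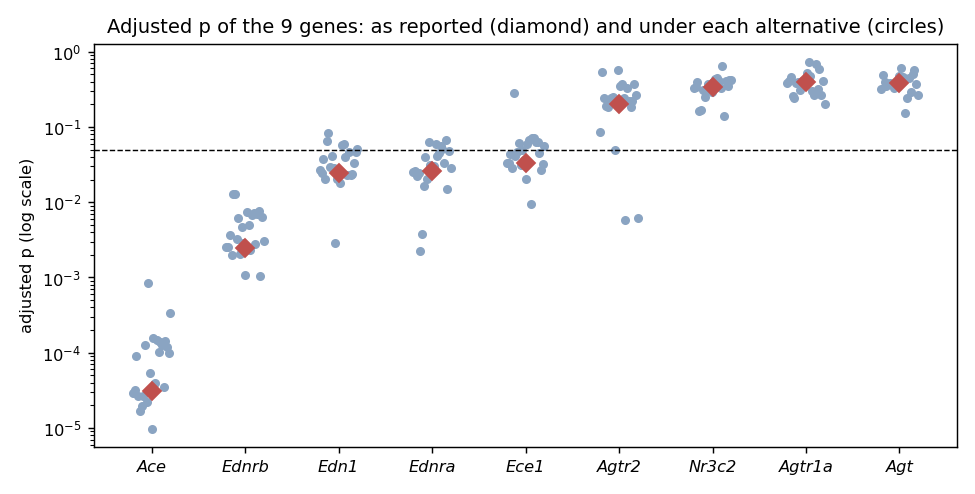
Adjusted p from limma (vertical axis, log scale) of each of the 9 genes as reported (diamonds) and under each alternative in which it was tested (circles), with a dashed line at 0.05. Ace and Ednrb stay below the line throughout, Edn1, Ednra and Ece1 lie on both sides of it, and Agtr2 is below it in 3 alternatives.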

How the data were processed

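The authors deposited FPKM for 10 libraries of E19.5 rat hearts, made with a TruSeq stranded mRNA kit, with GO and KEGG terms per gene. The submitters' processing notes name fastp, HISAT2, HTSeq, R 3.2.0 and the build mRatBN7.2, and FPKM divide reads by gene length and library size. All columns of single samples were used (0 unused).

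The members and gene lists were chosen with earlier results of these data known. The study's own test takes read counts, so the FPKM were instead compared as log2(FPKM + 0.1) in limma 3.58.1 (R 4.3.3; trend, no covariate), for the 14542 of 18025 genes whose mean reached 0.1 FPKM. Fold changes on this scale understate changes of low genes. Receptor ratios were compared by two-sided exact permutation tests. In simulated data for this comparison 192 of 200 changed genes were recovered, and 6 of 14344 unchanged genes were called. The planted changes were at or above the DEG size, with the same dispersion for every gene. Called genes of the real data had a median absolute log2 fold change of 0.31, and recovery of such smaller changes was not tested. Values were read and drawn with Python 3.11.15, pandas 2.3.3, numpy 2.4.6 and matplotlib 3.10.9.

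Reads were recovered from the FPKM steps as the smallest whole numbers that gave all values of a gene, within 0.002 reads plus a share of 1.0e-07, for 100% of genes. Tested on simulated data, this step gave the true reads of 1419 of 1475 genes, and a factor shared by all values of a gene, possible where few reads were seen, would go unnoticed. At 16672876 to 19109844 reads per library the genes under about 0.1 FPKM rest on few reads. voom on these reads called 5961 genes. Named were all 9 genes, up to 4 called genes of each list with the smallest adjusted p, genes whose role pairs with a member, and the 3 genes closest to each called member, and others are given as outside this rule. Some genes that the rule names are not reported here. Alternatives were other pseudocounts, filters and scalings, no trend, array weights, a replicate block, a Y chromosome covariate, voom and each library left out in turn, and the omission of replicate 4 in both groups was added after the data were seen.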

Additional observations from a re-analysis of the deposited data

Results flagged for a closer look

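In 4 of 70 groups of 5 libraries, the extreme library lay so far from the next that the gap, divided by the range of the group, exceeded the critical value of 0.71 (Dixon's test at 95%), and chance alone marks about 1 group in 20. Ece1 had a gap of 0.781 in CON, where CON3, at 67.5 FPKM, was highest. Furin had a gap of 0.786 at its highest CON library. Hsd11b2 had a gap of 0.774 at the highest CON library, CON3, which held 11 reads against 7 to 8 in the other CON libraries. The log2 ratio of Nr3c1 to Nr3c2 had a gap of 0.729 at its highest CON library, CON5, with 3.74.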

How the results depend on the processing

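The number of the 9 genes called was 5, and it was 3 with median-of-ratios factors and 2 to 5 when 1 library was left out, lowest without CON2. Past the DEG threshold were 1 gene as reported, 0 at a pseudocount of 1, 1 to 2 when 1 library was left out (2 without CON4, when Agtr2 was added) and 2 without replicate 4 in both groups. Of the signalling genes 15 were called, and 9 with median-of-ratios factors. Of the genes raised by angiotensin or endothelin in cultured cells 5 were called, 3 with median-of-ratios factors, quantile normalization, no trend or without replicate 4 in both groups, and 3 to 5 when 1 library was left out (3 without CON4, HG1, HG3 or HG4). DEGs over all genes numbered 282, against 64 at a pseudocount of 1, 407 at 0.01, 134 with a filter at a mean of 1 FPKM, 426 with voom and 429 when the fold was the ratio of mean FPKM. The difference in the log2 ratio of Agtr2 to Agtr1a ranged from -1.06 (without CON4, adjusted p = 0.0476, exact permutation test) to -0.32 when 1 library was left out. That of Ednrb to Ednra ranged from 0.40 to 0.50, and without replicate 4 in both groups it was 0.50 (adjusted p = 0.0857 over the 3 ratios, where the unadjusted p of an exact permutation test of 4 libraries against 4 cannot go below 0.0286). That of Nr3c1 to Nr3c2 ranged from -0.0886 to 0.045, with the positive sign only without HG2. Signs turned for Hsd11b2, whose log2 fold change ranged from -0.23 to 0.070 when 1 library was left out (0.070 without HG3), and for Hsd11b1, to -0.000941 at a pseudocount of 1, -0.061 with median-of-ratios factors, -0.071 with quantile normalization, -0.00416 without hemoglobin genes, -0.02 without CON3, -0.11 without CON4 and -0.068 without HG1 (0.083 at most, without CON5) and -0.11 without replicate 4 in both groups. The causes of these changes were not tested. Over the planned settings 363 values kept their direction and side of the threshold, 9 lost the call, 1 gained it and 4 changed sign, and with libraries left out these were 322, 21, 3 and 5.

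The groups share replicate numbers, but same-numbered libraries did not deviate together (correlations of 0.108, -0.0749, -0.126, -0.0276 and 0.0144 for numbers 1 to 5), so the numbers were not taken to pair them. With a replicate block in the limma fit, 5096 genes were called against 5836, and 5 of the 9 genes, with Agtr2 gained (log2 fold change -0.84, adjusted p = 0.0489) and Ednra lost (-0.12, adjusted p = 0.0627). Agt was not tested without CON3 or with a filter at a mean of 1 FPKM, and Agtr1a, Agtr2 and Nr3c2 were not tested with that filter. For genes with few reads, such as Agt, depth limits what can be seen.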

Other observations

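Rgs2, a regulator that speeds the turn-off of Gnaq signalling and was named after its values were seen, rose from a CON mean of 26.8 ± 7.48 FPKM to an HG mean of 46.0 ± 8.70 FPKM (SD, n = 5 each), a log2 fold change of 0.81 (limma, adjusted p = 0.00450), and the groups did not overlap. Rgs5, a regulator of pericytes, also named after its values were seen, fell by 0.31 on the log2 scale (adjusted p = 0.00456), from 89.7 ± 7.79 to 72.2 ± 6.54 FPKM. The receptor kinase gene Grk3 rose by 0.37 (adjusted p = 0.0470), while Grk2 (0.01, adjusted p = 0.928) and Grk5 (0.06, adjusted p = 0.508) did not pass. Among the calcium-linked transcription factors, Nfatc1, which is also an endocardial marker, rose by 0.45 (adjusted p = 0.00977), and Nfatc2, Nfatc3 and Nfatc4 did not pass, with adjusted p of 0.314, 0.111 and 0.196.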
